A study of Mus musculus with 12 samples.

Results

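Integrin and laminin genes were followed in RNA-seq of cultured mouse cells, as every gene whose symbol names an integrin alpha subunit, an integrin beta subunit or a laminin chain. The rule found 30 genes among 14610 listed in any of the authors' 4 tables: 14 integrin alpha, 5 integrin beta, 5 laminin alpha, 3 laminin beta and 3 laminin gamma genes. The cells are labelled as PDGF neural stem cells, and 11 of the 12 sample titles carry PDGFB, a growth factor that drives glial precursor growth (that of K27M DMSO replicate 1 reads PDGB). WT denotes cells with wild-type histone H3.3 (label H3WT) and K27M denotes cells with K27M H3.3, a histone with a lysine-to-methionine change found in childhood diffuse midline gliomas. Cells of each genotype were treated for 12 days with the solvent DMSO or with 3 µM of EPZ6438, an inhibitor of Ezh2, and each of the 4 groups has 3 libraries. All groups grew on plates coated with laminin and poly-D-lysine, in neural stem cell medium that held N2, B27, EGF and bFGF. Replicates are numbered in the labels, with no word on whether they came from separate cultures. The p-values therefore speak of the spread among these libraries alone, and part or all of that spread may be technical. How the histone and PDGFB were introduced, and whether each genotype is 1 line, is not stated in the labels.

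Integrins are cell surface receptors made of 1 alpha and 1 beta chain. They bind the extracellular matrix or other cells and tie them, through adaptor proteins, to the actin cytoskeleton. Laminins are secreted trimers of an alpha, a beta and a gamma chain that build basement membranes. Neural stem cells attach to laminin mainly through integrins that contain the Itgb1 chain, and the vascular and ventricular niches of the brain hold laminin. Ezh2 is the catalytic subunit of PRC2, a complex that places the repressive methyl marks on histone H3, and K27M histone reduces those marks in most of the genome.

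Total estimated counts ran from 7.9 to 24.1 M (M for megacounts) per library. Every K27M DMSO library was deeper than every library of the other groups. Depth therefore cannot be told apart from that group in the comparisons that use it. Deviations of genes from their group mean followed GC content in most libraries. The Spearman correlation across genes, which are not independent replicates, was strongest in WT DMSO replicate 1, at -0.69. It was 0.56 and 0.50 in WT DMSO replicates 2 and 3, 0.55 in WT inhibitor replicate 2 and -0.50 in K27M inhibitor replicate 1. In K27M inhibitor replicate 3 it was 0.09. Deviations within a group balance each other, so the values of a group are linked. Counts of calls for K27M in DMSO and for the interaction are given with and without WT DMSO replicate 1. The neural stem cell list was fully detected, with 10 of 10 markers and a summed level of 7151 to 8168 CPM (counts per megacount of library, after TMM scaling) per library. All 5 oligodendrocyte lineage markers were also listed. Gene counts cannot separate K27M from wild-type H3.3, and the inhibitor acts on the Ezh2 protein, so neither condition could be checked from the level of its target gene. Ezh2 itself was 0.79 ± 0.100 on the log2 scale in K27M against WT cells in DMSO (adjusted p 0.00197, edgeR; 0.32, still called, once the trend of each library with GC content is removed) and -0.39 ± 0.0449 under the inhibitor in K27M cells (adjusted p 5.59e-05). In bulk RNA, fewer cells of a type and less RNA per cell cannot be told apart.

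Promoter sequences are shown for the genes on which the inhibitor comparisons turn. Itga8, Itga1 and Lama2 are, beside Itga9, the genes with the highest rises in both genotypes, and Itgb1 encodes the beta chain that pairs with most of the alpha chains and had the highest level. Sequences are RefSeq entries on GRCm38.p6, 5′ to 3′, from 250 bases before to 50 bases after the RefSeq start of the gene. Each CG is in capitals, the dinucleotide whose density marks CpG islands.
Itga8 (chr2:12301895-12302194, minus strand): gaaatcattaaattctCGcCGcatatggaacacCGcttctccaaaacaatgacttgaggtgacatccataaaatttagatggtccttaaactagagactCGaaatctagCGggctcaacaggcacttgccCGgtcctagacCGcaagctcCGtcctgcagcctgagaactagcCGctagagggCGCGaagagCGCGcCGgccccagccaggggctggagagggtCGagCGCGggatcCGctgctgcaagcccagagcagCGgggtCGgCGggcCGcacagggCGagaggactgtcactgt
Itga1 (chr13:115101915-115102214, minus strand): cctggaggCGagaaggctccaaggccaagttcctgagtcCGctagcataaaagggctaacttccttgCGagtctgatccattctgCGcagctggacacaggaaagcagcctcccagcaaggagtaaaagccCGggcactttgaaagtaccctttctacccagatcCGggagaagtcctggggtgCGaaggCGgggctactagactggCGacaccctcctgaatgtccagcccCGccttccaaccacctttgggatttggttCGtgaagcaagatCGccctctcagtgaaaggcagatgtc
Lama2 (chr10:27616893-27617192, minus strand): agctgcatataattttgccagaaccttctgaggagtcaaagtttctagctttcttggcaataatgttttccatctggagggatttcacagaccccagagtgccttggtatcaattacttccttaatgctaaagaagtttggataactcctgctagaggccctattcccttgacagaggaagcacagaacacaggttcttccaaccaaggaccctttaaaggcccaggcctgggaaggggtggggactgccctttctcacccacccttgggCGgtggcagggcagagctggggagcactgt
Itgb1 (chr8:128685404-128685703, plus strand): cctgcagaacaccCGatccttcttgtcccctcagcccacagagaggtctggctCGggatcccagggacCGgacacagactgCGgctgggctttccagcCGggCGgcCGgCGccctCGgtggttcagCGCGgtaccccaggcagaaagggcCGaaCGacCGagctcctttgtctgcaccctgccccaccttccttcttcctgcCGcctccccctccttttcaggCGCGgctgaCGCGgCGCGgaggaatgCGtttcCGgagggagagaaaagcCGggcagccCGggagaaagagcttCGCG
The search was for the letters CG, which read the same on both strands. The promoter of Itgb1 held 27, that of Itga8 held 23, that of Itga1 held 12 and that of Lama2 held 1. Among all 32851 promoters of the table, the median was 7, and 15.5%, 21.5%, 39.6% and 94.6% held at least as many as each of these in that order. A promoter entry was found for 19 of the 30 members, in 21 entries, with a median of 13 and a range of 1 to 27. The entries shown for genes that rose most thus hold from 1 to 23 CG, and the low end is Lama2 alone. The main transcript of Lama2 starts 99 bases downstream of the RefSeq start, outside the printed window. Its annotated gene begins upstream of that window, so the entry may not be the promoter in use. The RefSeq entry for Itga9 lies inside the gene, far downstream of the start of its main transcript, and is not shown.

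Levels are compared between genes as CPM per kb of transcript, means ± SD over 3 libraries. Itgb1 stood highest, at 170.3 ± 10.9 CPM per kb in WT DMSO and 267 ± 4.59 in K27M DMSO. Next came Itga6, a laminin-binding chain known from neural stem cells, at 74.6 ± 3.04 and 89.5 ± 1.11, and Itgav, a chain that binds matrix proteins with an RGD motif, at 64.3 ± 9.3 and 68.2 ± 0.465. In WT DMSO these neighbours did not separate beyond their spread. Lamc1, the gamma chain of most laminins, led the laminin genes at 49.7 ± 4.2 in WT DMSO, followed by Lama5 at 31.1 ± 3.98 and Lamb2 at 29.7 ± 4.42, which overlapped. The genes with the highest rises under the inhibitor started low: Itga9 stood at 1.37 ± 0.195, Itga8 at 0.456 ± 0.237 and Lama2 at 0.162 ± 0.0266 CPM per kb in WT DMSO. In K27M inhibitor libraries they stood at 11.4 ± 0.458, 7.97 ± 0.908 and 1.46 ± 0.0221. Itga7, a laminin-binding chain best known from muscle, took the opposite path, from 31.7 ± 4.65 in WT DMSO to 8.61 ± 0.162 in WT inhibitor libraries. In the WT inhibitor group, Itga9 and Itga7 stood close together.

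**Figure D1:**
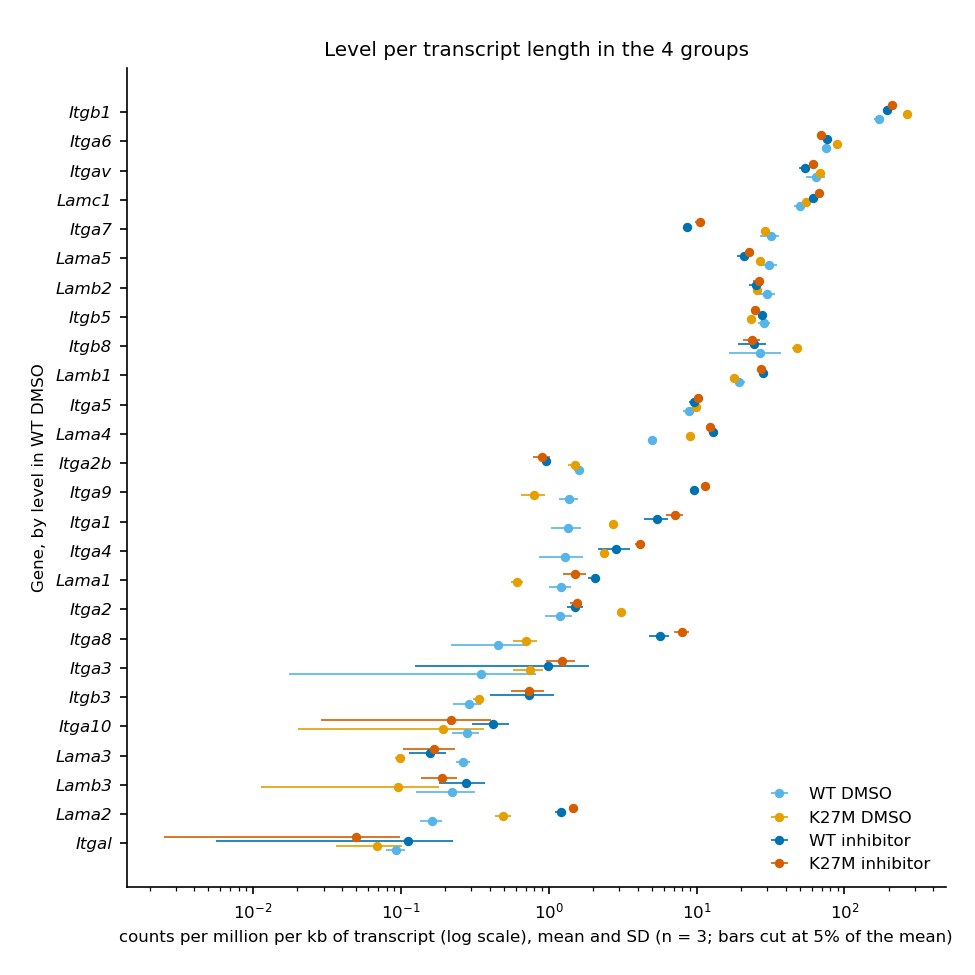
Level of the 26 members with a transcript in all 4 tables, in CPM per kb of transcript (log scale, mean and SD, n = 3; bars are cut at 5% of the mean), one colour per group and genes ordered by their level in WT DMSO. Itgb1 stands at the top in every group, Itga7 moves left and Itga9, Itga8 and Lama2 move right under the inhibitor. Above all Itga3, Itga2b and Lamb3 are shown from part of their transcripts only.

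Each pair of groups was tested across all genes with edgeR's quasi-likelihood test, and a gene was called at a Benjamini-Hochberg adjusted p below 0.05. Single adjusted p-values below are from this test, which for the interaction was made in a model of all 12 libraries. Ranges of adjusted p over alternatives also span other fits, among them DESeq2. For K27M against WT in DMSO, 26 members were tested, of which 10 were higher and 4 lower in K27M. Over all tested genes, 29.8% were called higher and 30.4% lower (3906 and 3991 genes). These counts were 4624 and 4653 without WT DMSO replicate 1, 2230 and 2875 without WT DMSO replicate 3, 2304 and 2788 without K27M DMSO replicate 1 and 2264 and 2764 without K27M DMSO replicate 2. The inhibitor in WT cells raised 12 and lowered 3 of 25 tested members, against 21.4% and 20.7% of all genes (2752 and 2668, or 1674 and 1670 without WT DMSO replicate 3 and 1723 and 1702 without WT inhibitor replicate 3). The inhibitor in K27M cells raised 13 and lowered 7 of 27, against 28.9% and 27.3% of all genes. The share of members called higher was above that background in these 3 comparisons, and the share called lower was below it in the first 2 and near it in the third, with no test made of the shares. No member was called between K27M and WT cells that both had the inhibitor, where 0.567% of all genes were higher and 1.23% lower. Median log2 fold changes of tested members were 0.20, 0.34, 0.28 and 0.09 in these 4 comparisons, against 0.00, 0.04, 0.01 and 0.01 for all genes. Groups did not overlap for 14, 16, 21 and 13 of the tested members. The share over all genes was not counted, so these numbers are not a result about the members. The first comparison shares its WT DMSO libraries with the second and its K27M DMSO libraries with the third, so the directions of these pairs of comparisons are not independent.

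**Figure D2:**
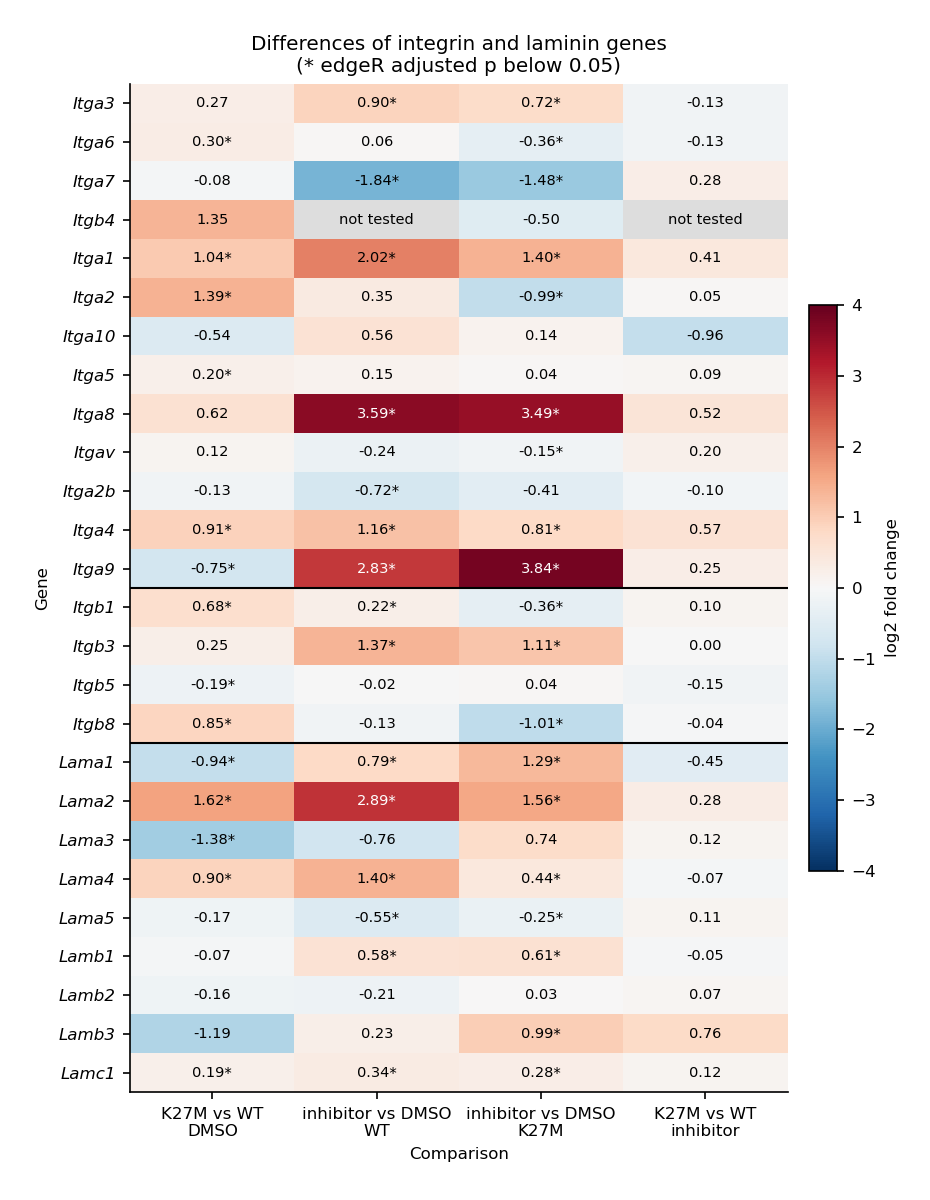
Log2 fold change of the tested members reported here (rows, by family and ligand) in the 4 comparisons (columns), with an asterisk at an adjusted p below 0.05 and grey where a gene was not tested. The inhibitor columns hold the darkest cells, for Itga8, Itga9 and Lama2 (higher) and Itga7 (lower), and the column of K27M against WT under the inhibitor has no asterisk.

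Of the 25 members tested with the inhibitor in both genotypes, 11 were higher in both: Itga1, Itga3, Itga4, Itga8, Itga9, Itgb3, Lama1, Lama2, Lama4, Lamb1 and Lamc1. Itga7 and Lama5 were lower in both. Itgb1 was called higher in WT and lower in K27M cells, Itga2b was called lower in WT cells, Lamb3 higher in K27M cells, and Itga2, Itga6, Itgb8 and Itgav lower in K27M cells. A further 5 were called in neither: Itga5, Itga10, Itgb5, Lama3 and Lamb2. The share of all genes called in both genotypes was not counted, so these counts are not a result about the members. Calls of Itga2b, Itga3, Itga4, Itgav, Itgb1, Itgb3, Lama5 and Lamb3 in 1 genotype or both were lost in some alternatives, given below. Other cell type markers moved in the same libraries. The summed level of mesenchymal markers was 36.0 to 54.0 CPM in WT DMSO and 134 to 152 in WT inhibitor libraries (6 of 8 listed), and 86.0 to 91.9 and 143 to 154 in K27M cells (7 of 8 listed). Within that list Twist1 had 0.0312 ± 0.054 CPM in WT DMSO and 30.6 ± 4.05 in WT inhibitor libraries, and Col3a1 had 0.0948 ± 0.0831 and 18.9 ± 1.66. The defining marker Dcn was at 0 in all DMSO libraries, and Lum was at 0 in K27M DMSO. Of the tested mesenchymal markers, 5 of 6 were called higher with the inhibitor in WT and 6 of 7 in K27M cells. Col1a1 was called in neither, and Col1a2 was not listed. In 1 normalization over the 12 libraries, Col1a1 had 2.33 ± 0.395 CPM in WT DMSO and 3.34 ± 0.824 in WT inhibitor libraries. In K27M cells it had 2.38 ± 0.269 CPM in DMSO and 2.94 ± 0.458 with the inhibitor. The endothelial sum was 10.5 to 11.7 CPM in WT DMSO and 22.9 to 25.8 in WT inhibitor libraries (2 of 8 listed: Flt1 and Kdr), and 9.41 to 10.98 and 26.2 to 30.1 CPM in K27M cells (5 of 8 listed), while Cdh5, Tek and Cldn5 were not listed. The oligodendrocyte lineage sum was 3323 to 3853 CPM in WT DMSO and 1712 to 2010 in WT inhibitor libraries, and 2649 to 2869 and 1787 to 1941 in K27M cells. Within it Olig1 went from 2237 ± 168 to 468 ± 44.0 CPM in WT (-2.26 ± 0.0914 on the log2 scale) and from 1697 ± 80.1 to 520.3 ± 21.9 in K27M cells (-1.71 ± 0.0408). Olig2 did not fall: it was -0.03 ± 0.086 in WT (adjusted p 0.811) and was called higher in K27M cells (0.42 ± 0.0343, adjusted p 5.19e-06). For K27M against WT in DMSO, the mesenchymal sum was 84.4 to 90.8 against 35.3 to 52.8 CPM (3 of 8 listed) and the oligodendrocyte lineage sum was 2631 to 2821 against 3260 to 3783 CPM. That mesenchymal difference lay in Prrx1, with 84.9 ± 3.52 CPM in K27M and 40.3 ± 9.14 in WT (1.07 ± 0.151; 0.44 after removal of the GC trend, still called), while Col1a1 was not called (0.07 ± 0.185). The Schwann cell and neural crest sum was 57.1 to 69.4 CPM in K27M DMSO against 17.9 to 46.6 in WT DMSO (3 of 5 listed). Most of it was Cdh19, with 51.0 ± 6.24 CPM in K27M DMSO and 18.3 ± 9.78 in WT DMSO, normalized over 12 libraries. Of the 3 tested only Cdh19 was called there (1.49, and 0.41 after removal of the GC trend, still called). The sum was 26.9 to 37.2 against 58.1 to 70.04 CPM with and without the inhibitor in K27M cells, and 19.0 to 35.04 against 18.2 to 47.5 in WT cells. Of 6 skeletal muscle markers only Mef2c was listed, at 71.6 to 79.0 CPM in K27M DMSO against 22.3 to 35.8 in WT DMSO (1.43 ± 0.167 on the log2 scale, and 0.61 after removal of the GC trend). In K27M cells it had 53.0 to 63.1 CPM with the inhibitor and 72.8 to 79.5 without. Of 8 microglial and leukocyte markers 1 was listed (Cd68), at no more than 4.06 CPM. With the inhibitor, 2 of 10 neural stem cell markers were called higher and 4 lower in WT, and 3 and 3 in K27M cells. Over all genes the shares were 21.4% and 20.7%, and 28.9% and 27.3%. Hes5 stood at -0.41 and -1.20 on the log2 scale in WT and K27M cells, and Sox2 at -0.23 and -0.59. Prom1 stood at 1.51 and 1.10. The Sox2 call in WT and the Prom1 call in K27M cells were each lost in 1 of 8 alternatives that left out no library. The part of these markers in the integrin and laminin results was not tested.

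Values per library below are CPM in 1 normalization over the 12 libraries, from the transcripts listed in all 4 tables. Fold changes come from each pair's own 6 libraries and all transcripts listed for that pair. Ratios of the printed levels differ slightly from these fold changes, and more so for Itga2b. Itga9 pairs with Itgb1 into a receptor for tenascin-C, EMILIN1 and VCAM-1. The gene lies at chr9:118606690-118901003 on the plus strand (GRCm38), and its level was 8.27, 10.3 and 7.93 CPM in the WT DMSO libraries, 5.48, 4.01 and 5.76 in K27M DMSO, 60.5, 62.2 and 61.7 in WT inhibitor and 75.1, 70.1 and 75.3 in K27M inhibitor. The groups with and without the inhibitor were far apart, and K27M DMSO lay below WT DMSO with no overlap. The log2 fold change (± standard error, here and below) with the inhibitor was 2.83 ± 0.0973, adjusted p 1.11e-05, in WT cells and 3.84 ± 0.0947, adjusted p 1.7e-09, in K27M cells, or 7.09-fold and 14.4-fold. In DMSO, Itga9 was 1.68-fold lower in K27M cells (-0.75 ± 0.171, adjusted p 0.0118), and this call held in all 14 alternatives (adjusted p 0.000559 to 0.0434 over 14 alternatives). The transcript ENSMUST00000044165 held 71.2 to 96.0% of the counts of the gene in each library. For this transcript, the authors' deposited table gave natural log effects of -0.6138 for K27M in DMSO (q 0.0132), 1.998 and 2.787 for the inhibitor in WT and K27M cells (q 2.48e-65 and 2.2e-107), and 0.170 between the inhibitor groups (q 0.284).

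**Figure D3:**
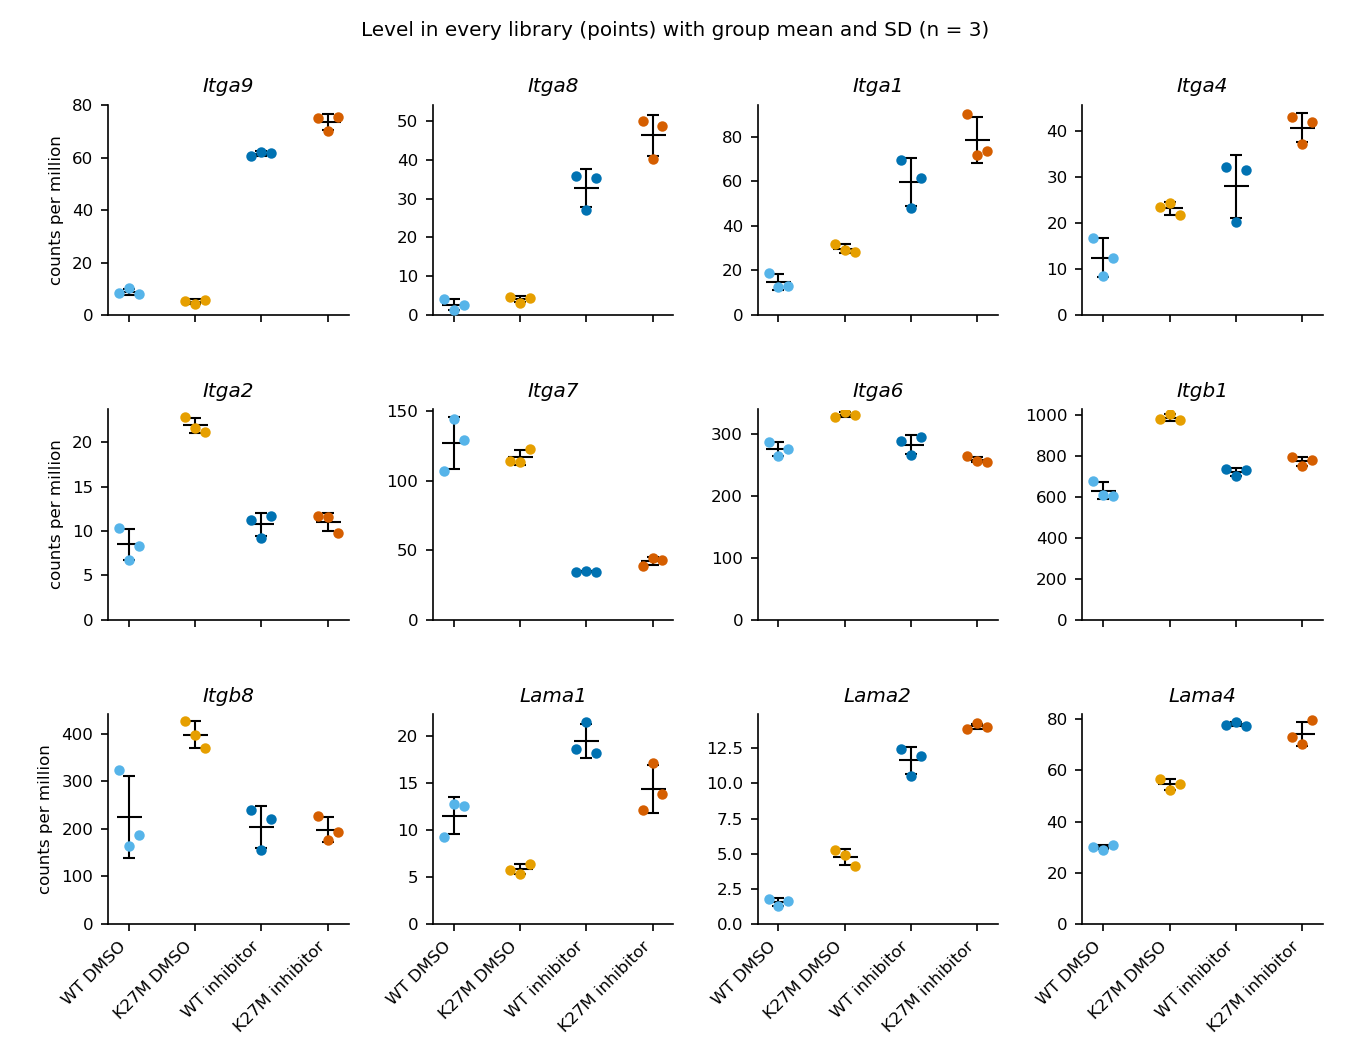
Levels in CPM in every library (points, n = 3 per group) with the group mean and SD for 12 members. In the panels of Itga9, Itga8, Itga1 and Lama2 both inhibitor groups lie above both DMSO groups, Itga7 shows the reverse, and Itga2, Itgb1 and Itgb8 are highest in K27M DMSO.

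Itga4, the other member of the Itga9 family, binds VCAM-1 and fibronectin and is known for cell migration. It measured 16.7, 8.4 and 12.4 CPM in the WT DMSO libraries, 23.5, 24.3 and 21.7 in K27M DMSO, 32.2, 20.1 and 31.6 in WT inhibitor and 43.1, 37.2 and 42.0 in K27M inhibitor. The lowest value of each WT group was replicate 2, and neither inhibitor group overlapped its own DMSO group. Itga4 rose with the inhibitor in WT cells (1.16 ± 0.287, adjusted p 0.0176) and in K27M cells (0.81 ± 0.0679, adjusted p 6.01e-06). The WT call was lost without WT DMSO replicate 3, WT inhibitor replicate 1 or WT inhibitor replicate 3, at log2 fold changes of 1.13, 1.06 and 1.06 (adjusted p 0.000335 to 0.0684 over 14 alternatives). It was 0.64 and called once the GC trend was removed. Itga4 was also called higher in K27M DMSO (0.91 ± 0.231, adjusted p 0.0166), but stood at 0.12 and was not called with each library's GC trend removed. That call was lost as well without WT DMSO replicate 3 or K27M DMSO replicate 1 or 2 (0.88, 0.90 and 0.87; adjusted p 4.19e-05 to 0.385 over 14 alternatives). Itgal, the leukocyte chain that binds ICAM-1, had 8 to 18 counts summed over a group and was not tested.

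Of the chains that bind proteins with an RGD motif, Itga8 rose and Itgav, Itga5 and Itga2b changed little or fell. Itga8 forms a receptor with Itgb1 for nephronectin and fibronectin and is needed for kidney development. It lies at chr2:12106632-12301922 on the minus strand, and its level was 4.02, 1.27 and 2.67 CPM in the WT DMSO libraries, 4.64, 3.22 and 4.41 in K27M DMSO, 35.7, 26.9 and 35.3 in WT inhibitor and 49.9, 40.2 and 48.8 in K27M inhibitor. Every inhibitor library was above every DMSO library, and replicate 2 was the lowest in each group. The rise was 12.1-fold in WT cells (3.59 ± 0.327, adjusted p 0.000269) and 11.3-fold in K27M cells (3.49 ± 0.125, adjusted p 1.73e-08). In DMSO the genotypes overlapped (0.62 ± 0.375, adjusted p 0.192). Itga2b, the platelet chain that pairs with Itgb3, measured 3.72, 3.71 and 4.27 CPM in the WT DMSO libraries, 3.43, 4.01 and 3.4 in K27M DMSO, 2.15, 2.31 and 2.5 in WT inhibitor and 1.87, 2.22 and 2.45 in K27M inhibitor. The WT inhibitor libraries lay below all WT DMSO libraries (-0.72 ± 0.183, adjusted p 0.0195), and the call was lost in 6 of 14 alternatives, among them leaving out WT DMSO replicate 3, WT inhibitor replicate 1 or WT inhibitor replicate 3 (-0.67, -0.67 and -0.77; adjusted p 0.0038 to 0.116 over 14 alternatives). In K27M cells Itga2b was not called (-0.41 ± 0.224, adjusted p 0.15). The printed levels hold only 84.6% of its counts in K27M DMSO and 67.9% in K27M inhibitor libraries. In the fit of that pair, with all its transcripts, the K27M DMSO libraries had 4.07, 4.59 and 4.18 CPM. The K27M inhibitor libraries had 2.53, 2.63 and 4.72 CPM there, so these groups overlapped. Itgav had 334 to 512 CPM over the 12 libraries and was called lower with the inhibitor in K27M cells (-0.15 ± 0.0349, adjusted p 0.00453), a call that was lost with the GC trend removed (-0.04) and in 1 fit of all 12 libraries. In WT cells it was -0.24 ± 0.127, adjusted p 0.165, and after removal of the GC trend it stood at -0.58 and was called lower. The transcript ENSMUST00000111740 held 4.49 to 9.05% of the Itgav counts in WT DMSO, 26.5 to 38.3% in K27M DMSO, 23.3 to 29.3% in WT inhibitor and 9.60 to 22.2% in K27M inhibitor libraries, given as estimates of transcript use without a test. Itga5, the main fibronectin receptor chain, had 34.8 to 47.5 CPM and was called in K27M against WT in DMSO only as a small rise (0.20 ± 0.062, adjusted p 0.0302). That call was lost in 6 of 14 alternatives, including without WT DMSO replicate 3 or any K27M DMSO library (0.23, 0.22, 0.22 and 0.17; adjusted p 0.000212 to 0.105 over 14 alternatives). After removal of the GC trend it stood at 0.50 and was called, as was a value of 0.33 with the inhibitor in WT cells.

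The collagen-binding chains pair with Itgb1, and here Itga1 and Itga2 went different ways. Itga1, which binds collagen IV and laminin, lies at chr13:114953096-115101964 on the minus strand and measured 18.7, 12.5 and 13.1 CPM in the WT DMSO libraries, 31.9, 29.2 and 28.2 in K27M DMSO, 69.5, 47.9 and 61.5 in WT inhibitor and 90.2, 71.6 and 73.6 in K27M inhibitor. The 4 groups formed a ladder with no overlap between the DMSO groups or between an inhibitor group and its own DMSO group. The inhibitor raised it 4.06-fold in WT cells (2.02 ± 0.209, adjusted p 0.000481) and 2.63-fold in K27M cells (1.40 ± 0.0843, adjusted p 5.81e-07). In DMSO it was 2.05-fold higher in K27M (1.04 ± 0.175, adjusted p 0.00448). After removal of the GC trend it stood at 0.42 and was still called.

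Itga2, a collagen I receptor chain, measured 10.3, 6.74 and 8.33 CPM in the WT DMSO libraries, 22.9, 21.7 and 21.1 in K27M DMSO, 11.3, 9.24 and 11.7 in WT inhibitor and 11.7, 11.5 and 9.81 in K27M inhibitor. Only the K27M DMSO libraries stood out, above all 9 others, and the other groups overlapped one another. Itga2 was 2.63-fold higher in K27M than in WT cells in DMSO (1.39 ± 0.156, adjusted p 0.00148; 0.86 with the GC trend removed, still called). With the inhibitor it fell 1.99-fold in K27M cells (-0.99 ± 0.0793, adjusted p 4.31e-06), and in WT cells it was 0.35 ± 0.197, adjusted p 0.183. Itga10, a cartilage collagen receptor chain, lay between 0 and 2.79 CPM and was called in no comparison. Itga11, a fibroblast collagen receptor chain, was listed in the tables of the inhibitor in K27M cells and of the inhibitor groups, and passed no filter on low counts.

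Among the laminin-binding alpha chains, Itga7 fell with the inhibitor, Itga3 rose and Itga6 changed little. Itga7 lies at chr10:128933818-128958282 on the plus strand, and its level was 107, 144 and 129 CPM in the WT DMSO libraries, 114, 113 and 123 in K27M DMSO, 34.2, 35.3 and 34.1 in WT inhibitor and 38.6, 44.4 and 43.2 in K27M inhibitor. Every inhibitor library lay far below every DMSO library, and the genotypes overlapped in DMSO. It fell 3.59-fold in WT cells (-1.84 ± 0.0983, adjusted p 3.36e-05) and 2.8-fold in K27M cells (-1.48 ± 0.0617, adjusted p 4.32e-08). In DMSO the genotypes did not differ in a call (-0.08 ± 0.089, adjusted p 0.471), and after removal of the GC trend the value turned to 0.22 and was called. Itga6 measured 287, 265 and 275 CPM in the WT DMSO libraries, 327, 335 and 331 in K27M DMSO, 288, 266 and 294 in WT inhibitor and 263, 256 and 255 in K27M inhibitor. The K27M DMSO libraries were the highest and the K27M inhibitor libraries the lowest. It was called higher in K27M DMSO (0.30 ± 0.0576, adjusted p 0.00678), a call that was lost with the GC trend removed (0.02), and it fell 1.29-fold with the inhibitor in K27M cells (-0.36 ± 0.0276, adjusted p 3.02e-06). In WT cells the groups overlapped (0.06 ± 0.0675, adjusted p 0.485). Itga3, an epithelial laminin receptor chain, had at most 8.85 CPM in any library and was called higher with the inhibitor in WT cells (0.90 ± 0.156, adjusted p 0.00432) and in K27M cells (0.72 ± 0.209, adjusted p 0.0146). The K27M call was lost without K27M DMSO replicate 2 or K27M inhibitor replicate 1 (0.57 and 0.54; adjusted p 0.00659 to 0.532 over 14 alternatives). Its counts were assigned to different transcripts in different libraries, and both calls were lost in the fit of all 12 libraries, which uses only the transcripts listed in every table. Itgb4, which pairs only with Itga6 and anchors epithelial cells, had at most 1.15 CPM and was not called in the 2 comparisons that tested it.

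The common partner Itgb1 was the most abundant member. It lies at chr8:128685654-128733200 on the plus strand and measured 677, 608 and 606 CPM in the WT DMSO libraries, 981, 1007 and 975 in K27M DMSO, 736, 700.3 and 734 in WT inhibitor and 793, 751 and 778 in K27M inhibitor. K27M DMSO was above all other libraries, and the 6 inhibitor libraries lay between both DMSO groups. Itgb1 was 1.6-fold higher in K27M than in WT cells in DMSO (0.68 ± 0.0711, adjusted p 0.00124), and the log2 fold change was 0.27 with the GC trend removed, still called. With the inhibitor it fell 1.28-fold in K27M cells (-0.36 ± 0.0256, adjusted p 1.95e-06). In WT cells the call of a 1.17-fold rise (0.22 ± 0.0744, adjusted p 0.049) was lost in 10 of 14 alternatives, including leaving out any library but WT DMSO replicate 1 (adjusted p 0.00236 to 0.722 over 14 alternatives), and the log2 fold change was -0.04 with the GC trend removed. Without WT DMSO replicate 2 or 3 it was 0.17 or 0.17, and without WT inhibitor replicate 1, 2 or 3 it was 0.22, 0.23 or 0.21.

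Itgb8 pairs with Itgav and is known in the brain for activating latent TGF-beta. It measured 323, 164 and 187 CPM in the WT DMSO libraries, 427, 397 and 369.8 in K27M DMSO, 239.5, 155 and 219.7 in WT inhibitor and 226, 176 and 193 in K27M inhibitor. WT DMSO replicate 1 lay well above the other WT DMSO libraries, and K27M DMSO was higher than every other library. With the inhibitor Itgb8 fell 2.01-fold in K27M cells (-1.01 ± 0.077, adjusted p 3.15e-06) and was not called in WT cells (-0.13 ± 0.291, adjusted p 0.741), where it stood at -0.66 and was called lower after removal of the GC trend. Its higher level in K27M DMSO (0.85 ± 0.27, adjusted p 0.0332) was 0.02 and not called with the GC trend removed. It was also lost without any single library except WT DMSO replicate 1, with log2 fold changes of 0.65 and 0.72 without WT DMSO replicates 2 and 3, and of 0.80, 0.85 and 0.90 without K27M DMSO replicates 1, 2 and 3 (adjusted p 7.62e-07 to 0.827 over 14 alternatives). Without WT DMSO replicate 1 it was 1.24.

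Itgb3, the vitronectin receptor chain of platelets and osteoclasts, measured 1.37, 1.56 and 2.07 CPM in the WT DMSO libraries, 2.14, 1.81 and 1.89 in K27M DMSO, 6.21, 4.33 and 2.28 in WT inhibitor and 4.02, 3.33 and 5.45 in K27M inhibitor. WT inhibitor replicate 3 lay close to the highest WT DMSO library, and the other inhibitor libraries were clearly above DMSO. Itgb3 was called higher with the inhibitor in WT cells (1.37 ± 0.38, adjusted p 0.0267) and in K27M cells (1.11 ± 0.211, adjusted p 0.0014). The WT call was lost without WT DMSO replicate 2 or 3 (1.29 and 1.54) or WT inhibitor replicate 1 or 2 (1.05 and 1.33; adjusted p 0.00637 to 0.0808 over 14 alternatives). Itgb5, another partner of Itgav, measured 83.7, 98.9 and 96.8 CPM in the WT DMSO libraries, 74.7, 79.3 and 73.3 in K27M DMSO, 87.7, 90.7 and 91.7 in WT inhibitor and 77.5, 87.0 and 79.2 in K27M inhibitor. K27M DMSO was lower than WT DMSO by a small margin (-0.19 ± 0.057, adjusted p 0.0288). This call was lost in 9 of 14 alternatives: with DESeq2, with the GC trend removed, where the sign turned (0.10), and without any library except WT DMSO replicate 1 (adjusted p 0.000927 to 0.121 over 14 alternatives). Without WT DMSO replicates 2 and 3 it was -0.16 and -0.17, and without K27M DMSO replicates 1, 2 and 3 it was -0.17, -0.21 and -0.18.

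The laminin alpha genes Lama1, Lama2 and Lama4 rose with the inhibitor in both genotypes and Lama5 fell. Lama2, the alpha chain of muscle and nerve basement membranes whose loss causes a congenital muscular dystrophy, lies at chr10:26980036-27619758 on the minus strand. It measured 1.75, 1.27 and 1.67 CPM in the WT DMSO libraries, 5.24, 4.9 and 4.12 in K27M DMSO, 12.4, 10.5 and 11.9 in WT inhibitor and 13.9, 14.3 and 13.98 in K27M inhibitor. The groups did not overlap, with WT DMSO lowest and K27M inhibitor highest. The inhibitor raised it 7.43-fold in WT (2.89 ± 0.175, adjusted p 5.2e-05) and 2.95-fold in K27M cells (1.56 ± 0.107, adjusted p 1.45e-06). In DMSO it was 3.07-fold higher in K27M (1.62 ± 0.19, adjusted p 0.00163).

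Lama4, the laminin alpha chain of blood vessels, measured 30.2, 29.1 and 30.9 CPM in the WT DMSO libraries, 56.8, 52.5 and 54.6 in K27M DMSO, 77.9, 79.0 and 77.4 in WT inhibitor and 73.1, 70.4 and 79.5 in K27M inhibitor. K27M DMSO lay above WT DMSO, and both inhibitor groups lay above both. It was 1.86-fold higher in K27M DMSO (0.90 ± 0.0599, adjusted p 0.000471), rose 2.65-fold with the inhibitor in WT (1.40 ± 0.0697, adjusted p 2.56e-05) and 1.35-fold in K27M cells (0.44 ± 0.0534, adjusted p 8.15e-05). Lama1, an alpha chain of embryonic basement membranes, measured 9.26, 12.8 and 12.5 CPM in the WT DMSO libraries, 5.71, 5.34 and 6.43 in K27M DMSO, 18.6, 21.5 and 18.2 in WT inhibitor and 12.1, 17.1 and 13.8 in K27M inhibitor. K27M DMSO was the lowest group and WT inhibitor the highest. In DMSO it was 1.92-fold lower in K27M (-0.94 ± 0.136, adjusted p 0.00282), and the inhibitor raised it 1.73-fold in WT (0.79 ± 0.142, adjusted p 0.00497) and 2.44-fold in K27M cells (1.29 ± 0.143, adjusted p 4.11e-05).

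Lama5, the most widely expressed laminin alpha chain in adult tissue, measured 299.8, 374 and 381 CPM in the WT DMSO libraries, 293, 292 and 322 in K27M DMSO, 209, 245 and 253 in WT inhibitor and 248, 267 and 249 in K27M inhibitor. Inhibitor libraries lay below the DMSO libraries of their genotype, in WT and in K27M cells. The fall was 1.46-fold in WT (-0.55 ± 0.104, adjusted p 0.00629) and 1.19-fold in K27M cells (-0.25 ± 0.0499, adjusted p 0.00177). In K27M cells it was not called in 1 fit of all 12 libraries (-0.25; adjusted p 8.76e-08 to 0.0552 over 14 alternatives). After removal of the GC trend the falls were -0.39 and -0.46, so the larger fall in WT did not hold there. The difference between the responses was not called (0.33 ± 0.133, adjusted p 0.0716). Lama3, an epithelial laminin chain, measured 2.58, 2.34 and 2.07 CPM in the WT DMSO libraries, 0.882, 0.794 and 0.925 in K27M DMSO, 1.77, 1.01 and 1.37 in WT inhibitor and 1.39, 0.952 and 2.09 in K27M inhibitor. In DMSO it was 2.6-fold lower in K27M (-1.38 ± 0.199, adjusted p 0.00276), with every K27M DMSO library below every WT DMSO library. It was not called with the inhibitor in WT (-0.76 ± 0.28, adjusted p 0.0644) or K27M cells (0.74 ± 0.32, adjusted p 0.0752).

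Of the laminin beta and gamma chains, Lamb1 and Lamc1, which with Lama1 form the classic laminin of early embryos, rose with the inhibitor in both genotypes. Lamb1 had 100.6 to 120.0 CPM in DMSO and 154 to 166 CPM in inhibitor libraries, a 1.5-fold rise in WT (0.58 ± 0.0624, adjusted p 0.000556) and 1.52-fold in K27M cells (0.61 ± 0.0356, adjusted p 4.8e-07). Lamc1 rose by 0.34 in WT (adjusted p 0.00561) and 0.28 in K27M cells (adjusted p 0.000106) on the log2 scale. In DMSO Lamc1 was called 0.19 higher in K27M (adjusted p 0.0157), a call lost without K27M DMSO replicate 2 or 3 (0.19 and 0.18; adjusted p 8.56e-05 to 0.058 over 14 alternatives). After removal of the GC trend it stood at 0.37 and was called. Lamb2, a beta chain of mature basement membranes, had 125 to 182 CPM and was called in no comparison as tested. After removal of the GC trend it was called at 0.17 for K27M in DMSO and -0.15 for the inhibitor in K27M cells. Lamb3, a partner of Lama3 in epithelia, was rare, at 2.12 CPM or less in K27M cells. It was called higher with the inhibitor in K27M cells (0.99 ± 0.285, adjusted p 0.0142). Lamb3 lost its call in 5 of 14 alternatives: with DESeq2, in the fit of all 12 libraries, and without K27M DMSO replicate 2 or 3 or K27M inhibitor replicate 1 (0.89, 0.86 and 0.84; adjusted p 0.011 to 0.317 over 14 alternatives). Transcripts listed in every table held only 37.4% of its counts in K27M DMSO and 35.6% in K27M inhibitor libraries in that pair. Lamc3 was listed in 2 tables and tested in none.

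The comparison of the genotypes in DMSO followed the GC content of the genes. Across 13072 genes, the Spearman correlation between log2 fold change and GC content was -0.70, given as a description since genes share libraries. For the inhibitor it was -0.404 in WT and 0.273 in K27M cells. It was 0.667 for the difference between these 2 responses (12983 genes) and -0.192 between the inhibitor groups. Itgb8 has the lowest GC content among the members drawn, 40.5%, followed by Itga4 with 41.1% and Itga1 with 42.8%, all called higher in K27M DMSO. Lama5, at 59.9%, had a log2 fold change of -0.17. With each library's GC trend removed, 11 members were higher and 4 lower in K27M DMSO, with 2661 and 2968 of all genes. Itga4, Itga6 and Itgb8 fell to 0.12, 0.02 and 0.02 and were no longer called. Itgav turned from 0.12 to -0.43 and was called lower. Itga9, Lama1, Lama2, Lama3 and Lama4 kept their calls at -0.62, -0.73, 1.48, -1.31 and 0.93. Without WT DMSO replicate 1, 12 members were higher and 8 lower (4624 and 4653 of all 13465 genes tested), and without K27M DMSO replicate 2, 6 were higher and 3 lower (2264 and 2764 of 13098). For the inhibitor in WT cells, 13 were higher and 6 lower with the GC trend removed, beside 12 and 3 without that step. Over all genes these counts were 2957 and 3042 of 12870, beside 2752 and 2668. Of the 14 calls for K27M in DMSO 8 held under every alternative, as did 10 of 15 for the inhibitor in WT and 15 of 20 for the inhibitor in K27M cells.

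**Figure D4:**
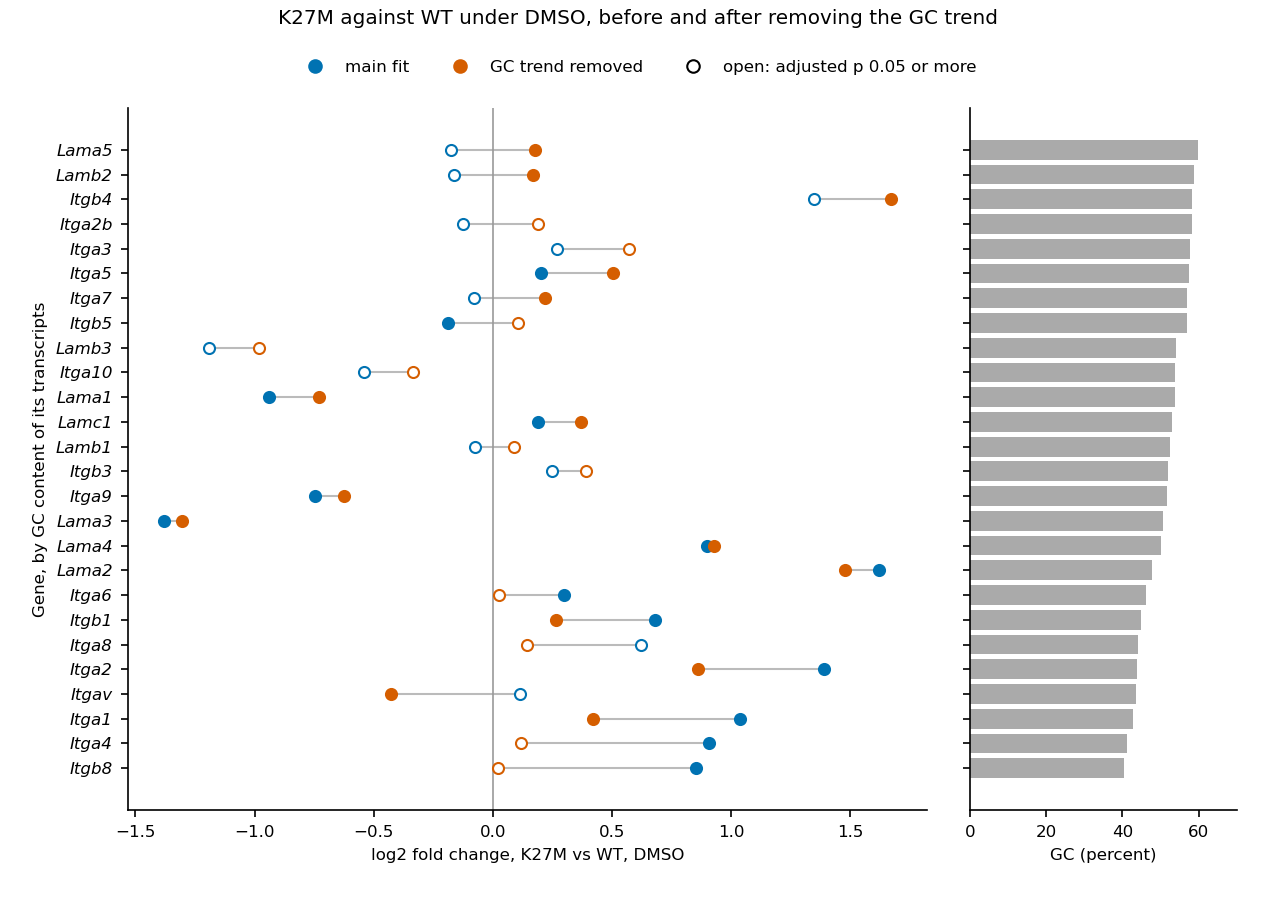
Log2 fold change of K27M against WT in DMSO for each member, as tested (blue) and with each library's GC trend removed (orange), with open symbols where a gene was not called. Genes run by GC content, shown in percent in the bar panel. Members with low GC content such as Itgb8 and Itga4 move toward 0, and Lama2, Lama4, Lama1 and Itga9 stay on their side of 0.

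The inhibitor response itself differed between genotypes for 8 of 25 tested members, 3 of them with a higher response in K27M cells and 5 with a lower one. Among all genes the interaction was called in 20% upward and 15.8% downward (2606 and 2056 genes). It was not called for 17 of 25 members and for 8378 of 13040 genes. Members were thus called no more often than all genes, with no test made of the shares. Without WT DMSO replicate 1 the interaction was called upward in 3034 and downward in 3787 of 13119 genes. The upward count was 1700 without WT DMSO replicate 3, 1715 without K27M DMSO replicate 2 and 1692 without K27M inhibitor replicate 2, and with the GC trend removed 1447 were upward and 1363 downward. Itga9 rose more in K27M than in WT cells (difference 1.04 ± 0.166, adjusted p 0.00135). Lama2 (-1.30 ± 0.195, adjusted p 0.000958) and Lama4 (-0.93 ± 0.0797, adjusted p 3.59e-05) rose less. For Itga2 (-1.31 ± 0.200, adjusted p 0.00106), Itgb1 (-0.55 ± 0.0668, adjusted p 0.000302) and Itga6 (-0.39 ± 0.0654, adjusted p 0.00167) the response in K27M cells was downward and below that in WT cells. After removal of the GC trend Itgb1 and Itga6 differed by -0.22 and -0.18, still called. Itga7 fell less in K27M cells (0.40 ± 0.137, adjusted p 0.0404), but with the GC trend removed the difference was 0.07 and not called, and it was lost in 12 of 19 alternatives, among them leaving out any library but WT DMSO replicate 1, K27M DMSO replicate 3 and K27M inhibitor replicate 1 (0.27 to 0.38; adjusted p 0.00431 to 0.689 over 19 alternatives). For Lama3 the difference was 1.53 ± 0.43, adjusted p 0.019, and it was lost without K27M DMSO replicate 2 or K27M inhibitor replicate 3 (1.43 and 1.18; adjusted p 0.0146 to 0.0517 over 19 alternatives). Itga8, with nearly equal rises, had a difference of -0.07 ± 0.35, adjusted p 0.896. The number called upward was 6 without WT DMSO replicate 1 and 1 without K27M DMSO replicate 2 or K27M inhibitor replicate 3. These DMSO libraries enter both the responses and the comparison of genotypes in DMSO, so the 2 are not separate evidence.

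**Figure D5:**
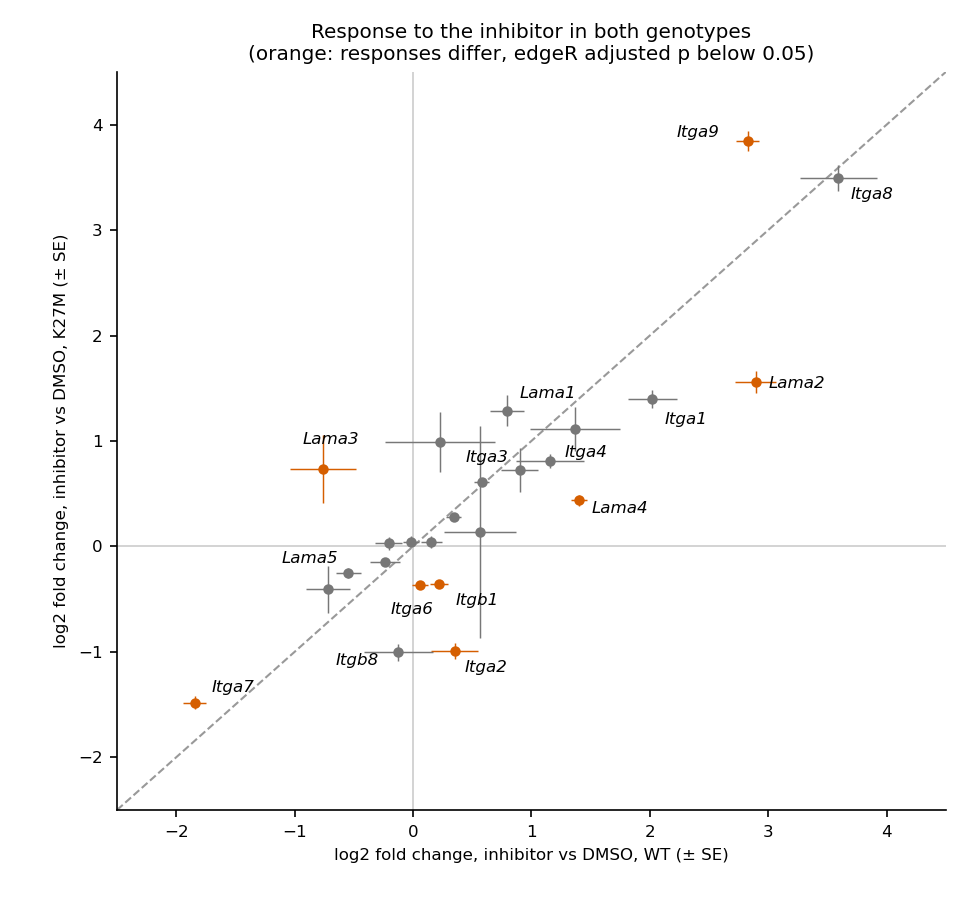
Log2 fold change with the inhibitor in WT cells (horizontal axis) and in K27M cells (vertical axis) for each member, with standard errors, in orange where the interaction was called. Itga8 lies close to the line of equal response, Itga9 above it, and Lama2, Lama4 and Itga2 below it.

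With the inhibitor in both genotypes, none of 25 tested members was called between K27M and WT cells, with log2 fold changes from -0.96 to 0.76 and a median standard error of 0.0997. At an unadjusted p below 0.05, 9 were higher and 3 lower, and the share of all genes at that threshold was not counted. DESeq2 called 1 member higher (Itga8), beside 95 higher and 163 lower of 12289 genes. Itga9 came closest in edgeR (0.25 ± 0.0529, adjusted p 0.0635), with every K27M library above every WT library, and over its 14 alternatives the adjusted p ran from 0.0139 to 0.272. With the GC trend removed 6 members were called higher and 1 lower, beside 317 and 423 of 13060 genes. Itga8 (0.52 ± 0.123, adjusted p 0.0885), Lama2 (0.28 ± 0.0997, adjusted p 0.215) and Lama1 (-0.45 ± 0.144, adjusted p 0.182) were not called.

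Genes that work with integrins and laminins were followed in 3 lists. Beside the counts in these lists, the shares of all genes called higher and lower were 21.4% and 20.7% for the inhibitor in WT, 28.9% and 27.3% for the inhibitor in K27M cells, and 29.8% and 30.4% for K27M in DMSO. Of the adaptors that tie integrins to actin, 26 of 28 were tested with the inhibitor: 5 rose and 8 fell in WT cells (median log2 fold change -0.04), and 10 rose and 9 fell in K27M cells (0.04). Parvb, which binds integrin-linked kinase, fell from 114 ± 9.5 to 28.6 ± 2.49 CPM in WT (log2 fold change -1.99 ± 0.0974, adjusted p 2.5e-05) and by 1.94 on the log2 scale in K27M cells (adjusted p 6.13e-09). Actn1, an actin crosslinker, rose from 25.9 ± 2.43 to 74.5 ± 6.82 CPM in WT (1.53 ± 0.103, adjusted p 8.21e-05) and by 1.54 ± 0.0446 in K27M cells (adjusted p 4.56e-09). Tns1, a tensin at fibrillar adhesions, rose in both (0.81 and 1.22). In K27M against WT cells in DMSO 5 adaptors were higher and 9 lower (median -0.14), with Lims1, which binds integrin-linked kinase, at 0.89 ± 0.208 and the kinase Src at -0.60 ± 0.0753. With the GC trend removed Lims1 stood at 0.06 and was not called, and Src at -0.27, called.

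Of 25 other integrin ligands, 12 of 19 tested were higher and 2 lower with the inhibitor in WT cells (median 0.52), and 12 of 21 were higher and 4 lower in K27M cells (0.39), against 21.4% and 20.7% of all genes in WT and 28.9% and 27.3% in K27M cells. Emilin1, a ligand of Itga4 and Itga9 integrins, rose from 7.46 ± 2.08 to 42.5 ± 7.09 CPM in WT (2.52 ± 0.216, adjusted p 0.000216) and from 3.54 ± 0.31 to 38.0 ± 2.73 CPM in K27M cells (3.42 ± 0.092, adjusted p 2.93e-09). Tgfb1, whose latent form binds Itgav integrins, rose in both (2.10 ± 0.232 and 1.83 ± 0.185). Nid1, a basement membrane protein that binds laminin, rose from 25.2 ± 2.29 to 83.0 ± 5.51 CPM in WT cells (1.72 ± 0.0929, adjusted p 3.56e-05). For K27M against WT in DMSO, 9 ligands were higher and 5 lower (median 0.18), where 29.8% and 30.4% of all genes were. Edil3, an RGD protein that binds Itgav integrins, was higher in K27M DMSO (2.43 ± 0.168, adjusted p 0.000487; 1.36 with the GC trend removed, called), and Emilin1 was lower (-1.05 ± 0.213, adjusted p 0.00798). Between the inhibitor groups 2 of 21 were lower in K27M, Vcam1 (-0.57 ± 0.0941, adjusted p 0.0306) and Nid1 (-0.35 ± 0.0685, adjusted p 0.0489).

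Laminin receptors outside the integrins, such as the dystrophin complex and syndecans, formed the third list: 2 of 19 tested were higher and 4 lower with the inhibitor in WT cells (median -0.10). In K27M cells 5 of 19 were higher and 9 lower (-0.17), and for K27M against WT in DMSO 7 were higher and 7 lower (-0.15). The shares over all genes were 21.4% and 20.7%, 28.9% and 27.3%, and 29.8% and 30.4% in that order. Dmd, which encodes dystrophin, fell from 159.8 ± 6.8 to 87.1 ± 7.49 CPM with the inhibitor in K27M cells (-0.87 ± 0.0593, adjusted p 1.37e-06). In DMSO it was higher in K27M (0.82 ± 0.225, adjusted p 0.0208), but was 0.08 and not called with the GC trend removed. Dtna, the dystrophin-binding dystrobrevin, rose with the inhibitor in WT (0.91 ± 0.104, adjusted p 0.000718) and in K27M cells (0.36 ± 0.038, adjusted p 3.23e-05).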

How the data were processed

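RNA was measured in 12 libraries of polyadenylated RNA, prepared with TruSeq reagents for a HiSeq2500, per the labels' protocols. The submitters' processing notes name kallisto, sleuth and GRCm38. Tool versions, annotation and strand setting: not given in the sources used here. Of the 4 tables deposited by the authors, each compares 2 groups over 6 libraries. According to the headers, they hold estimated counts per transcript and, per transcript, a p-value, a q-value and an effect with its standard error, which the authors' tool gives as a natural log. The deposited estimated counts carried library-specific size factors, read off as the step between repeated low values (below 20, at least 5 occurrences) and undone. Of low values from single-transcript genes, 45.0 to 57.1% were then whole (tolerance 0.01). Listed transcripts have at least 5 counts in at least 3 libraries.

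Counts were summed per gene, rounded and tested per pair with edgeR 4.0.16 in R 4.3.3 (filterByExpr, TMM, quasi-likelihood test, two-sided, Benjamini-Hochberg over all genes). The interaction used all 12 libraries and the 34436 of 44294 transcripts listed in every table. Transcripts with no gene name (0.45 to 0.58% of counts) were left out. GC content and transcript lengths came from GENCODE transcripts (GC for 14548 of 14610 genes, and for all members), and gene positions from the same annotation. Alternatives were relative log expression factors, DESeq2 1.42.0, no filter, GC trends removed, a replicate block, 1 fit of all libraries, and leaving out each library. The planned GC correction was first computed as a lowess of each library's log deviations with the mean of the trend put back. It was replaced, after its result was seen and with an earlier count of these data known, by medians in 50 GC bins smoothed with a span of 0.3 and no re-centring, because the first left the median fold change of all genes at 0.0747 for K27M against WT in DMSO. Both are reported as alternatives. Tests were checked on simulated data.

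The members, pathway lists and marker lists were chosen with earlier results of these data known. Genes given in every library are Itga9 and, per comparison, up to 6 called members with the largest rise and up to 6 with the largest fall, with a group mean of at least 1 CPM in the higher group. From each pathway list up to 5 called genes with the largest change per comparison could be named. A member is counted in the totals and is not reported here by name.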

Additional observations from a re-analysis of the deposited data

Results flagged for a closer look

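For 8 members the inhibitor response differed between genotypes by a test of the difference itself, the interaction term of edgeR's model over 12 libraries. Of 25 tested members, 3 were called upward, 5 downward and 17 not called. Of all 13040 genes tested, 20% were called upward, 15.8% downward and 8378 genes were not called. Members were thus called no more often than all genes, with no test made of the shares. Differences are the log2 fold change in K27M minus that in WT cells. Itga9 rose in both, and the difference was 1.04 ± 0.166, adjusted p 0.00135. Lama2 rose in both, with a difference of -1.30 ± 0.195, adjusted p 0.000958, and so did Lama4, with -0.93 ± 0.0797, adjusted p 3.59e-05. Itga2, which fell in K27M cells, had a difference of -1.31 ± 0.200, adjusted p 0.00106. Itgb1 had -0.55 ± 0.0668, adjusted p 0.000302, and Itga6 had -0.39 ± 0.0654, adjusted p 0.00167. Itga7, which fell in both, had 0.40 ± 0.137, adjusted p 0.0404, and Lama3, called in neither response, had 1.53 ± 0.43, adjusted p 0.019. The first 6 of these were called under all 19 alternatives. After removal of GC trends the differences were 0.90 for Itga9, -1.20 for Lama2, -0.98 for Lama4, -0.89 for Itga2, -0.22 for Itgb1, -0.18 for Itga6, 0.07 for Itga7 and 1.45 for Lama3. Across 12983 genes, the Spearman correlation between this difference and GC content was 0.667. Across 8 members and 12 libraries, the part of depth and GC content in these differences was not tested further.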

How the results depend on the processing

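Relative log expression factors changed no call of a member in any comparison. DESeq2 called 1 member higher (and 0 lower) between the inhibitor groups. With the GC trend removed, 6 members were lower with the inhibitor in WT cells, against 3, and 6 were higher and 1 lower between the inhibitor groups, against 0 and 0. With the first form of the GC correction, 7 were higher there, and 15 higher and 4 lower for K27M in DMSO. Over all genes, K27M in DMSO gave 2661 higher and 2968 lower with the GC trend removed and 3391 and 2040 with the first form, against 3906 and 3991; the inhibitor groups gave 317 and 423, and 339 and 384 with the first form, against 74 and 160; the interaction gave 1447 and 1363, and 1310 and 1475 with the first form, against 2606 and 2056. The fit of all 12 libraries called 5 members lower with the inhibitor in WT cells, beside 3611 of 13040 genes, against 2668 of 12870 in the main fit. In no comparison did every pair of same-numbered libraries deviate together with a correlation above 0.1, so the numbers were not taken as pairs. The correlations for replicates 1, 2 and 3 were 0.0954, -0.0125 and 0.0715 for K27M in DMSO, 0.286, 0.322 and -0.0319 for the inhibitor in WT, -0.0179, -0.0343 and 0.0586 for the inhibitor in K27M, and 0.153, 0.127 and -0.0184 between the inhibitor groups. For the inhibitor in WT, inhibitor replicates 1 and 2 correlated best with their own number and replicate 3 with number 1 (0.113), a hint from the data and not from the design. The fit with the replicate block called 5 members lower with the inhibitor in WT cells, 5 higher between the inhibitor groups and 6 with a higher response in K27M. Over all genes these counts were 3186, 249 and 2898 in that order, against 2668, 74 and 2606 in the main fit. With the block and the GC trend removed, 5 members were lower with the inhibitor in WT cells and 6 higher and 1 lower between the inhibitor groups. Over all genes these counts were 3531, 367 and 401. Some directions turned with the GC trend removed, with the first form and with the block and the GC trend removed, in that order. For K27M in DMSO the log2 values became 0.2177, 0.2932 and 0.2190 for Itga7, -0.4266, -0.3345 and -0.4265 for Itgav, 0.1048, 0.1787 and 0.1035 for Itgb5, 0.1755, 0.2529 and 0.1756 for Lama5, and 0.1686, 0.2454 and 0.1695 for Lamb2, and for Lamb1 the first form gave 0.1602. For the inhibitor in WT cells Itgb5 became 0.1570, 0.2131 and 0.1573, while Itga6 became -0.1066 and Itgb1 -0.0355 with the GC trend removed, and -0.1065 and -0.0359 with the block as well. For the inhibitor in K27M cells Lamb2 became -0.1451, -0.1341 and -0.1441. The cause was not tested. Leaving out each library in turn gave 6 to 12 members higher and 3 to 8 lower for K27M in DMSO (6 without K27M DMSO replicate 2, 8 without WT DMSO replicate 1), 9 to 13 and 2 to 4 for the inhibitor in WT, 10 to 14 and 7 to 8 for the inhibitor in K27M, 0 and 0 between the inhibitor groups, and 1 to 6 and 5 to 7 for the interaction. Over all genes these ranges were 2230 to 4624 higher and 2764 to 4653 lower for K27M in DMSO. They were 1674 to 3894 and 1670 to 3808 for the inhibitor in WT, and 3404 to 3818 and 3222 to 3859 for the inhibitor in K27M. Between the inhibitor groups they were 0 to 76 and 17 to 119, and for the interaction 1692 to 3034 and 1538 to 3787. Members near 1 CPM rest on few counts, and those under the filter on low counts were not tested.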
